A study of Mus musculus with 3 samples.

Results

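Chemoattractant receptors steer dendritic cells between tissues and between zones of a lymph node. The 8 receptor genes described here are Ccr7, Gpr183, Ccrl2, Gpr65, Cxcr4, Ccr2, Cx3cr1 and Cmklr1, of 22548 genes in the feature list, chosen by name from a list of receptors that place myeloid cells. The choice was made with earlier results of these data known, so counts of receptors that differ are not those of an independent list. They were followed in 5023 of 6079 cell barcodes from lymph nodes that drain the ear, in mice whose skin had been inflamed with the vitamin D analogue MC903. A cell was kept when 1 hashtag supplied at least 80% of its hashtag UMIs (unique molecular identifiers, counts of captured molecules), it had 1000 mRNA UMIs or more, and no more than 10% of those were mitochondrial.

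All mice had the same genotype, SiglechiCreTg/0 ROSA26LoxP-STOP-LoxP-RFP Tnfsf4KI/+, and all were treated on days 0, 2 and 4 and sorted on day 5. RFP stays on once the Cre driven by Siglech, a gene of plasmacytoid dendritic cells, has been active, and BFP reports 1 allele of Tnfsf4, which encodes the costimulatory ligand OX40L. The labels give neither the number nor the age of the mice, and no untreated mice were analysed. The gate took MHC class II-high cells with low to intermediate CD11c that lacked B220, XCR1 and CD326, that is, migratory dendritic cells other than Langerhans cells and type 1 dendritic cells (cDC1). By hashtag, 842 kept cells had been sorted for both reporters (BFP+RFP+, called double-positive), 982 for RFP alone (BFP-RFP+, RFP-only), 2185 for BFP alone (BFP+RFP-, BFP-only) and 1014 for neither (BFP-RFP-, double-negative). They were pooled at 5200, 5200, 10400 and 5200 sorted cells, and their mRNA UMIs came to 14140272, 15746616, 35590897 and 14877282.

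CCR7 follows CCL19 and CCL21 and brings dendritic cells from skin through lymph vessels into the T cell zone. GPR183 (EBI2) follows oxysterols such as 7-alpha,25-dihydroxycholesterol and places cells near the edges of follicles and T cell zones. CXCR4 follows CXCL12, CCR2 and CX3CR1 are best known from monocytes and macrophages, CMKLR1 is the signalling receptor for chemerin, CCRL2 binds chemerin without classical signalling, and GPR65 senses acid outside the cell.

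Each population was recognised by the barcode of its hashtag antibody, and the surface proteins by the barcodes of 4 antibody tags. These oligo barcodes are shown because every population and tag level below was read through them.
Hashtag of double-positive cells: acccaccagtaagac
Hashtag of RFP-only cells: ggtcgagagcattca
Hashtag of BFP-only cells: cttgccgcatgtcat
Hashtag of double-negative cells: aaagcattcttcacg
Tag of CD11b: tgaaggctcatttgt
Tag of CD8a: tacccgtaatagcgt
Tag of CD172a: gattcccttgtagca
Tag of CD301b: cttgccttgcgattt
Per the labels the CD172a and CD301b antibodies were of other TotalSeq formats than the CD11b and CD8a antibodies. Whether this moved their counts was not tested.

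The labelled cell type was checked against its markers. The 14 markers of migratory dendritic cells had summed levels of 9521 to 9981 UMIs per 1000000 mRNA UMIs (CPM) in the populations. In the T and NK cell-like and B cell-like clusters described below the sums were 4302 and 4644 CPM. All 14 were detected in each population but also in those clusters, so detection alone does not tell the cell type. Fscn1, an actin bundler of mature dendritic cells, stood at 2161, 2291, 2145 and 2067 CPM in double-positive, RFP-only, BFP-only and double-negative cells. Xcr1, which marks cDC1, stood at 0.0707, 0.127, 0.141 and 0.202 CPM and Epcam, the CD326 gene of Langerhans cells, at 1.34, 3.62, 1.97 and 3.23 CPM in the same order. The summed type 1 dendritic cell markers nonetheless reached 56.9, 139, 47.7 and 83.0 CPM and the Langerhans cell markers 51.1, 52.1, 60.9 and 55.3 CPM. In that order Tnfsf4 stood at 305, 53.0, 102 and 19.8 CPM and tdRFP at 23.5, 21.0, 0.169 and 0.672 CPM. Macrophage genes did differ: the summed level of 14 markers was 267, 682, 190 and 688 CPM, higher in both BFP- populations. The mRNA, antibody and hashtag counts share all barcodes of 1 capture, so each population is a single sample. No test was made, and intervals are 95% intervals for counting error only.

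Ccr7 and Gpr183 had the most UMIs of the 8 receptors, on a 3' UMI scale that is not set per gene length. Ccr7 measured 1409 CPM in double-positive cells (1389 to 1428), 1312 in RFP-only cells (1294 to 1330), 1441 in BFP-only cells (1429 to 1454) and 1516 in double-negative cells (1496 to 1536). None of these intervals overlapped, but the levels lay close together. Gpr183 measured 843 CPM in double-positive cells (828 to 859), 706 in RFP-only cells (693 to 719), 440 in BFP-only cells (433 to 447) and 348 in double-negative cells (338 to 358). Both RFP+ populations were therefore above both RFP- populations, and no neighbouring intervals overlapped. These are sums over cells, in which more cells with the mRNA and more mRNA per cell cannot be told apart.

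Cxcr4, Ccrl2 and Gpr65 had fewer UMIs and ran the other way from Gpr183. Cxcr4 measured 34.8 CPM in double-positive cells (31.8 to 38.0), 52.8 in RFP-only cells (49.3 to 56.5), 53.6 in BFP-only cells (51.2 to 56.1) and 80.7 in double-negative cells (76.2 to 85.4). It was lowest where both reporters were on and highest where both were off, and the populations with 1 reporter could not be separated. Ccrl2 measured 25.1 CPM in double-positive cells, 29.2 in RFP-only cells, 33.2 in BFP-only cells and 44.7 in double-negative cells, the last alone clear of its neighbour's interval. Gpr65 measured 26.7 and 26.9 CPM in the double-positive and RFP-only cells, against 35.8 and 38.3 CPM in the BFP-only and double-negative cells. The RFP+ levels of Gpr65 overlapped each other, as did the RFP- levels.

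Ccr2, Cx3cr1 and Cmklr1 were rare. Ccr2 stood at 6.51, 7.05, 6.24 and 14.3 CPM in double-positive, RFP-only, BFP-only and double-negative cells, with the first 3 populations overlapping. In each population 5 cells held 51.4% to 79.4% of its UMIs. Cx3cr1 stood at 2.62, 5.46, 2.75 and 6.39 CPM in the same order, with BFP- cells above BFP+ cells. Cmklr1 had 3, 18, 6 and 19 UMIs, a level of 0.212, 1.14, 0.169 and 1.28 CPM, too few for the comparisons below, which used genes with at least 100 UMIs over both sides.

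**Figure D1:**
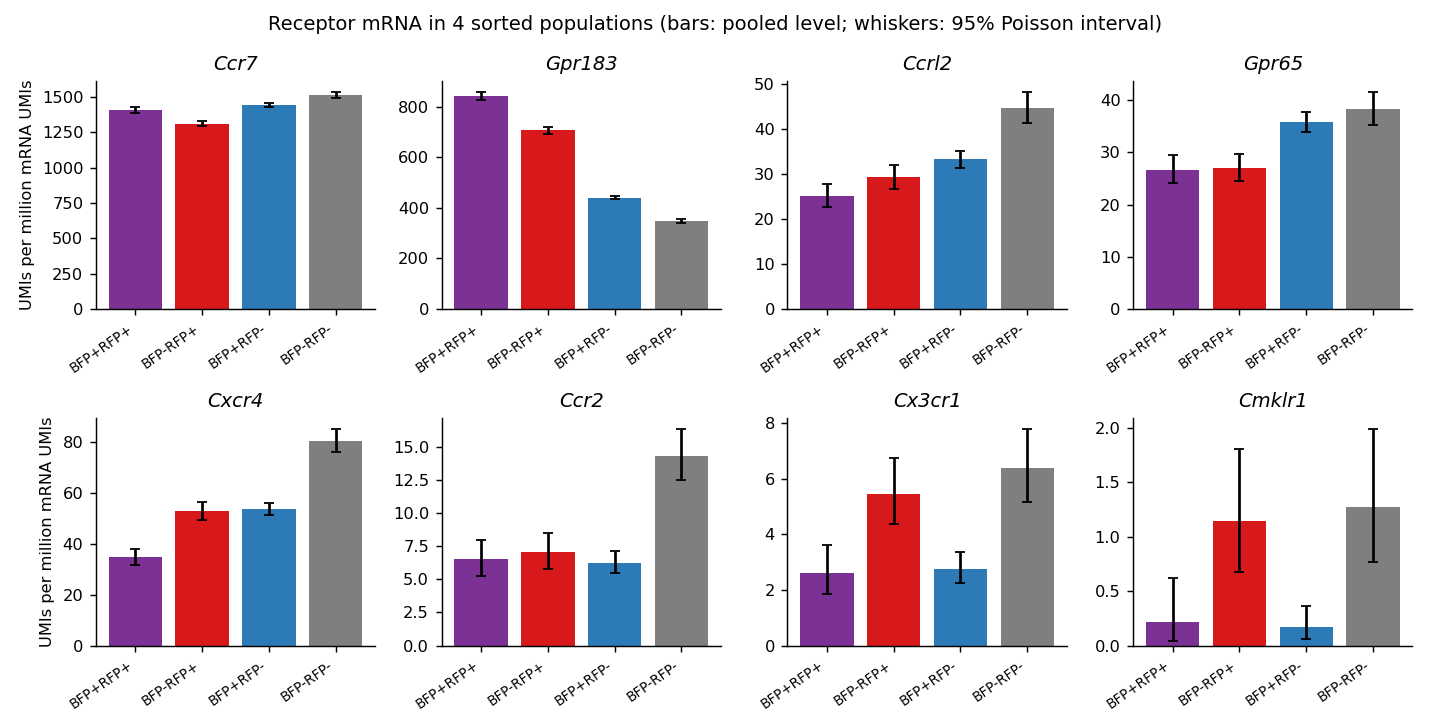
Level of each receptor in UMIs per 1000000 mRNA UMIs in the 4 sorted populations, with 95% Poisson intervals as whiskers, each panel on its own linear axis from 0. Gpr183 is highest in the RFP+ populations (843 and 706 CPM), while Cxcr4 is lowest in double-positive cells (34.8 CPM) and highest in double-negative cells (80.7 CPM).

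BFP+ cells were compared with BFP- cells to ask how receptors differ with the OX40L reporter. A ratio was counted as past the fold at a log2 ratio of 0.5 or more in size, a ratio of 1.41. Within RFP+ cells, 2 of 7 receptors were past it, both lower in BFP+ cells, where 11.8% of all genes were past it, 2.53% higher and 9.31% lower. They were Cxcr4, at -0.60 (-0.77 to -0.44), and Cx3cr1, at -1.05 (-1.66 to -0.49). Within RFP- cells, 3 of 7 were past it, all lower in BFP+ cells, where 7.97% of all genes were past it, 2.58% higher and 5.39% lower. Cxcr4 stood at -0.59 (-0.69 to -0.48), Ccr2 at -1.20 (-1.48 to -0.92) and Cx3cr1 at -1.21 (-1.64 to -0.79). The median receptor stood at -0.11 within RFP+ and -0.43 within RFP-, beside -0.09 and -0.07 for all genes tested.

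Gpr183 was on the higher side in BFP+ cells, within the fold, at 0.26 (0.22 to 0.29) within RFP+ and 0.34 (0.29 to 0.39) within RFP-. Inside the clusters described below the sides of Gpr183 were mixed. Within RFP+ it was higher in 4 of 8 clusters, with 3 intervals above 0 and 3 below. Within RFP- it was higher in 5 of 9, with 1 interval above 0 and 1 below. Ccrl2 was on the lower side at -0.22 and -0.43, and Gpr65 was near 0 at -0.01 and -0.10. Ccr7 stood at 0.10 within RFP+ and -0.07 within RFP-. Scaling by TMM, which moves every ratio up by 0.10 within RFP+ and 0.08 within RFP-, put the second value at 0.01. Cx3cr1 in both RFP states, and Ccr2 within RFP- (-0.11 within RFP+), were lower alongside macrophage genes: all 10 tested macrophage markers were past the fold and lower in BFP+ cells within RFP+, as were all 11 within RFP-. Markers of type 2 dendritic cells were also lower in BFP+ cells, 5 of 5 tested in each RFP state, at 77.9 against 201 CPM within RFP+ and 102 against 164 CPM within RFP-. Dissociation stress markers stood at 1337 against 1554 CPM, with 3 of 9 lower, and at 1335 against 1626 CPM, with 4 of 9 lower. B cell markers were higher, at 142 against 101 CPM (6 of 8 past the fold) and 160 against 121 CPM (6 of 9). In clusters 1 to 7, described below, Cx3cr1 stood at -0.05 and -0.09, and Cxcr4 at -0.72 within RFP+ and -0.45 within RFP-. When both sides were weighted to one cluster mix, Cxcr4 stood at -0.39 and -0.43, inside the fold, and Ccr2 within RFP- turned to 0.30. Without the 5 cells richest in the gene, Cx3cr1 within RFP+ stood at -0.47. The part of these marker lists in the levels over all cells was otherwise not tested.

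RFP+ cells were compared with RFP- cells to ask how receptors differ with a history of Siglech expression. Within BFP+ cells, 2 of 7 receptors were past the fold, where 11.1% of all genes were. Gpr183 was higher in RFP+ cells by 0.94 (0.90 to 0.97), as 4.34% of all genes were, and Cxcr4 was lower at -0.62 (-0.77 to -0.48), as 6.79% were. Within BFP- cells, 5 of 7 were past the fold, where 9.12% of all genes were. Gpr183 was higher by 1.02 (0.97 to 1.07), as 5.21% of genes were. Ccrl2, at -0.61 (-0.79 to -0.44), Gpr65, at -0.51 (-0.69 to -0.33), Cxcr4, at -0.61 (-0.74 to -0.48), and Ccr2, at -1.02 (-1.37 to -0.69), were lower, as 3.91% of genes were. Other markers differed as well. Within BFP-, T and NK cell markers stood at 476 CPM in RFP+ cells and 388 CPM in RFP- cells (7 of 11 higher and 1 lower), and those of type 2 dendritic cells at 201 and 164 CPM (4 of 5 higher). Macrophage markers summed to 682 and 688 CPM, but 6 of 11 were lower and 1 higher. Within BFP+, macrophage markers stood at 267 CPM in RFP+ cells and 190 CPM in RFP- cells (3 of 10 higher and 1 lower), and 4 of 11 T and NK cell markers and 3 of 9 stress markers were lower. Plasmacytoid dendritic cell markers stood at 764 against 571 CPM within BFP+ (2 of 4 higher, 0 lower) and 668 against 496 CPM within BFP- (2 of 5 higher, 0 lower). Type 1 dendritic cell markers within BFP- stood at 139 and 83.0 CPM (2 of 3 higher, 0 lower). Monocyte markers there stood at 191 and 127 CPM (2 of 5 higher, 1 lower). Their part in these ratios was not tested.

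The median receptor stood at -0.06 within BFP+ and -0.51 within BFP-, beside -0.03 and -0.01 for all genes tested. The 4 reporter comparisons share populations in pairs and so are not separate evidence.

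Within BFP+, Ccrl2 and Gpr65 were also on the lower side in RFP+ cells, at -0.40 and -0.42, and Ccr7 stood at -0.03 and, within BFP-, at -0.21. When both sides were weighted to one cluster mix, Gpr183 stood at 0.41 within BFP+ and 0.41 within BFP-, on the same side but inside the fold. In that setting Cxcr4 stood at -0.12 and -0.34, and within BFP- Ccrl2 at -0.31 and Gpr65 at -0.21, all inside the fold. Leaving out the 5 cells with most UMIs of the gene put Ccr2 within BFP- at 0.06, and Ccrl2 and Gpr65 there at -0.44 and -0.43. Gpr183 stood at 0.90 and 0.95 without its 5 highest cells.

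**Figure D2:**
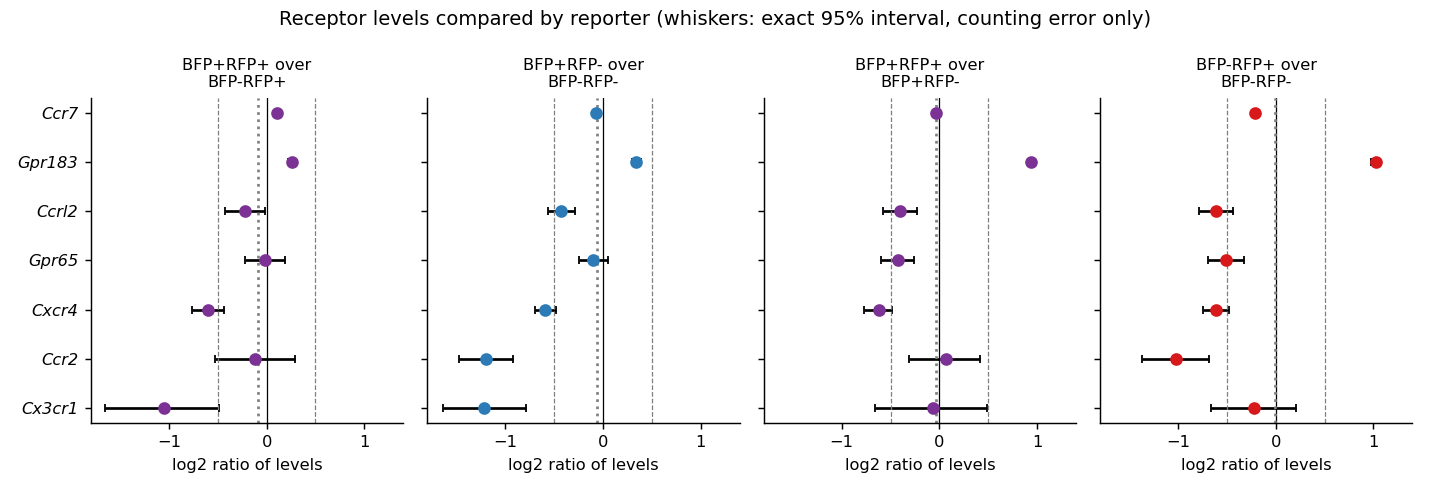
Log2 ratio of pooled levels for 7 receptors in the 4 comparisons by reporter, with exact 95% intervals for counting error as whiskers. Dashed lines mark the fold of 0.5, the solid line 0 and the dotted line the median of all genes tested. Gpr183 lies at 0.94 and 1.02 in the comparisons of RFP+ with RFP- cells, and Cxcr4 lies between -0.62 and -0.59 in all 4.

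In single cells Ccr7 was nearly universal and Gpr183 was not. After each cell had been thinned to 5000 mRNA UMIs, which left out 56 double-positive, 82 RFP-only, 153 BFP-only and 86 double-negative cells, Ccr7 was found in 93.0%, 90.1%, 94.5% and 93.5% of cells in that order. The median cell had 6, 5, 6 and 6 Ccr7 UMIs. Unthinned, the shares were 96.6%, 94.2%, 97.2% and 95.8%. The macrophage-like cells, which should lack Ccr7, had a median of 2838 UMIs and 4 of them were deep enough, 1 with a Ccr7 UMI, so no background share could be read from them. Their Ccr7 level was 114 CPM.

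Gpr183 was found in 71.9% of thinned double-positive cells (68.6% to 75.0%), 60.2% of RFP-only cells (56.9% to 63.4%), 48.9% of BFP-only cells (46.7% to 51.1%) and 40.6% of double-negative cells (37.5% to 43.9%). The median cell had 2, 1, 0 and 0 Gpr183 UMIs in that order. Cells with at least 10 Gpr183 UMIs made up 10.4%, 9.22%, 3.49% and 2.26%. More cells with a UMI and more cells with many UMIs thus went together in RFP+ cells. Unthinned shares were 79.1%, 65.5%, 61.3% and 49.7%, at median depths of 15182, 14330, 14850 and 13884 UMIs.

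**Figure D3:**
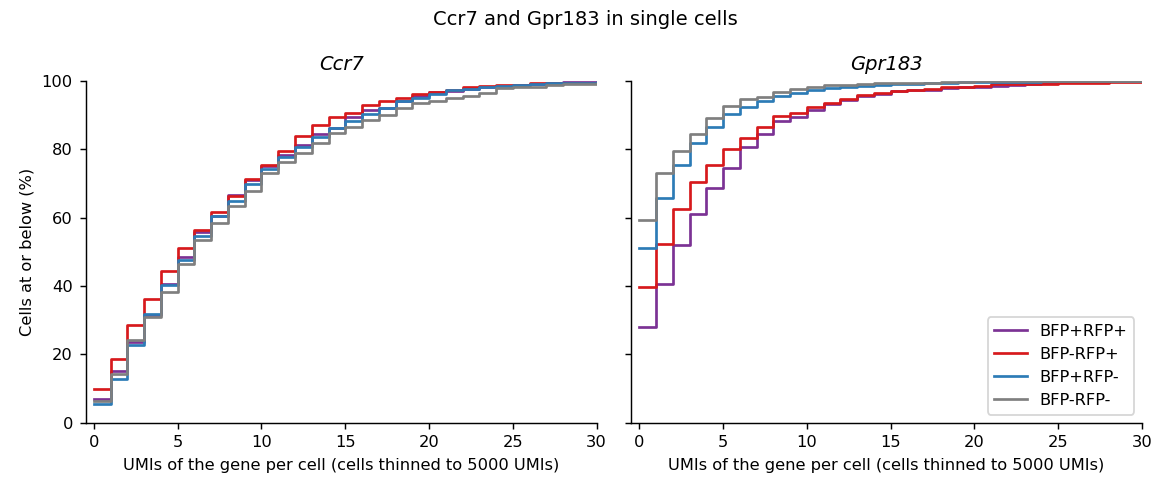
Share of cells at or below each number of UMIs, for Ccr7 and Gpr183, after thinning every cell to 5000 mRNA UMIs; 1 line per population. The Ccr7 lines run close together, starting between 5.51% and 9.89% of cells at 0, while the Gpr183 lines start at 28.1%, 39.8%, 51.1% and 59.4% for double-positive, RFP-only, BFP-only and double-negative cells.

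Of the sparser receptors, Cxcr4 was found in 11.3%, 18.8%, 18.1% and 25.8% of thinned double-positive, RFP-only, BFP-only and double-negative cells (27.2%, 32.9%, 38.2% and 42.4% unthinned). Gpr65 was found in 11.3%, 11.1%, 13.6% and 14.8%, against 20.8%, 21.4%, 26.9% and 25.0% unthinned. No cell type was fixed as lacking Gpr183, Gpr65 or Cxcr4, so none gave a background share. T and NK cell-like cells, of median depth 9006 UMIs, showed Gpr65 in 16.8% (11.9% to 22.7%), above each population. They were not fixed as a class that lacks it. Without a background share, no expression in single cells is read from the overall Gpr65 shares. In cluster 1 below, Gpr65 was found in 34.1% of thinned cells (31.2% to 37.1%). The lowest shares in clusters 1 to 7 below were 20.5% for Gpr183 (cluster 4), and 3.98% for Gpr65 and 3.98% for Cxcr4 (cluster 6). Ccrl2 was found in 7.89%, 8.67%, 9.15% and 9.59%. T and NK cell-like cells, the class fixed as lacking it, showed 6.44% (3.47% to 10.8%). That interval covers the share of each population, so no population was set above this class. Of the Ccrl2 UMIs of those T and NK cell-like cells, 52.6% lay in 5 cells, and the share was lower in clusters 2 and 4 below, at 3.24% (2.19% to 4.59%) and 1.27% (upper limit 2.6%), so 6.44% is no settled background. Cx3cr1 was found in 1.27%, 2.22%, 1.03% and 2.16%, where B cell-like cells, of median depth 5180 UMIs, showed 1 of 48 (0.0527% to 11.1%), too few to set a background. The share was 0.204% in cluster 5 and 16.1% (10.5% to 23.1%) in cluster 9 below. Ccr2 was found in 0.891%, 1.44%, 0.984% and 2.26%, beside 0 of 48 B cell-like cells, which allows a share of up to 7.40%.

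The cells were then grouped without the receptor genes and the other genes of the lists used here, which gave 12 clusters. Clusters 1 to 7, 4498 cells, each held at most 2 raised markers of any other cell type. Clusters 8 (236 cells), 10 (90 cells) and 11 (34 cells) were T and NK cell-like, B cell-like and macrophage-like. Cluster 9 (150 cells) had raised markers of macrophages (10 of 14) and of type 2 dendritic cells (6 of 8) and was left unnamed, as was cluster 12 (15 cells). All clusters come from 1 capture and can hold doublets, since the hashtag share removes only those between populations, and not all of them.

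Ccr7 was highest in cluster 1 (1071 cells), at 2511 CPM (2487 to 2535), against 876 to 1550 CPM in clusters 2 to 7. Cluster 1 was led by Galc, Flrt3 and Cxcl10, beside Ccrl2 and Gpr65 themselves. It had the highest Gpr65 level of all clusters, 93.3 CPM (88.8 to 98.1), and a Ccrl2 level of 96.1 CPM (91.5 to 101), next to 96.4 CPM (87.3 to 106) in cluster 9. Cluster 1 held 20.8% of all mRNA UMIs but 60.5% of the Ccrl2 UMIs, 59.1% of the Gpr65 UMIs, 37.4% of the Cxcr4 UMIs and 36.8% of the Ccr7 UMIs. Ccrl2 was found in 25.3% of its thinned cells (22.7% to 28.2%). The dissociation stress markers, 9 of 9 detected, summed to 2161 CPM there and to 2210 CPM in cluster 9, against 758 to 1331 CPM in clusters 2 to 6. Clusters 7, 8 and 12 lay between, at 1693, 1582 and 1860 CPM, with Ccrl2 at 9.76, 22.0 and 82.1 CPM and Gpr65 at 10.5, 36.1 and 14.2 CPM. The part of handling stress in these levels was not tested.

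Gpr183 was highest in cluster 2 (940 cells), at 1217 CPM (1201 to 1232), and found in 93.1% of its thinned cells. The cluster was led by Wnt3, Myl7, Thy1 and the Notch ligand gene Dll4, had the highest median of CD8a tag (162 UMIs per cell) and the highest Tnfsf4 level (313 CPM), and held 51.7% of all Gpr183 UMIs. It made up 41.9% of double-positive cells, 23.0% of RFP-only cells, 13.6% of BFP-only cells and 6.31% of double-negative cells. Next came clusters 12, 7 and 10 with 841, 768 and 609 CPM, and within clusters 1 to 7 the lowest level was 74.8 CPM in cluster 5. Ccrl2 and Cxcr4 were low in cluster 2, at 8.05 and 16.1 CPM. So within clusters 1 to 7 the cluster with most Gpr183 was not the one with most Ccrl2 and Gpr65. Cluster 1 stood at 210 CPM for Gpr183. Outside them, clusters 9 and 12 had both Gpr183 (590 and 841 CPM) and Ccrl2 (96.4 and 82.1 CPM), the last from 3 of 15 cells.

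The difference in Gpr183 between RFP+ and RFP- cells was also seen inside clusters. Within BFP+, Gpr183 was higher in RFP+ cells in 7 of the 8 clusters that could be compared, each with its interval above 0. Within BFP-, it was higher in 7 of 9, again with each of the 7 intervals above 0. In cluster 1 the log2 ratios were 1.53 (1.41 to 1.64) within BFP+ and 0.77 (0.60 to 0.94) within BFP-. In cluster 2 they were 0.24 (0.19 to 0.29) and 0.43 (0.35 to 0.52). Exceptions were cluster 4 within BFP+ at -1.09 (-1.93 to -0.43), on 17 UMIs in double-positive cells, and clusters 3 and 8 within BFP- at -0.24 and -0.27.

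Cxcr4 was spread more widely. B cell-like cells had the highest level, 178 CPM (150 to 209), followed by cluster 9 at 122 CPM (111 to 133) and cluster 1 at 98.9 CPM (94.2 to 104). T and NK cell-like cells and cluster 3 had 79.2 and 76.2 CPM, which overlapped. Cluster 3 (605 cells), led by Edil3 and Htra1, had the highest median of CD11b tag within clusters 1 to 7, 225 UMIs per cell. Within RFP-, Cxcr4 was on the lower side in BFP+ cells in 9 of 9 clusters, 5 of them with an interval below 0. Within RFP+ this was so in 6 of 8, 2 of them with an interval below 0. Against RFP- cells, RFP+ cells had lower Cxcr4 in 4 of 8 clusters within BFP+ and 6 of 9 within BFP-.

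Ccr2, Cx3cr1 and Cmklr1 lay mostly outside clusters 1 to 7. Cluster 9 held 5.20% of all mRNA UMIs but 81.0% of the Ccr2 UMIs, 50.3% of the Cx3cr1 UMIs and 93.5% of the Cmklr1 UMIs. Its levels were 124 CPM for Ccr2 (113 to 135), 38.1 CPM for Cx3cr1 (32.4 to 44.5) and 10.3 CPM for Cmklr1 (7.45 to 13.9). T and NK cell-like cells had 28.9 CPM of Ccr2 (23.5 to 35.1). In clusters 1 to 7 together Ccr2 stood at 0.280 CPM and Cx3cr1 at 1.86 CPM. Cmklr1 had 0 UMIs there, which allows up to 0.0516 CPM. Within cluster 9 Ccr2 was on the higher side in BFP+ cells, by 1.55 within RFP+ and 0.60 within RFP-, the reverse of the side over all cells, on 20 and 22 BFP+ cells against 59 and 49 BFP- cells. Cluster 9 made up 2.38% of double-positive cells, 6.01% of RFP-only cells, 1.01% of BFP-only cells and 4.83% of double-negative cells.

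**Figure D4:**
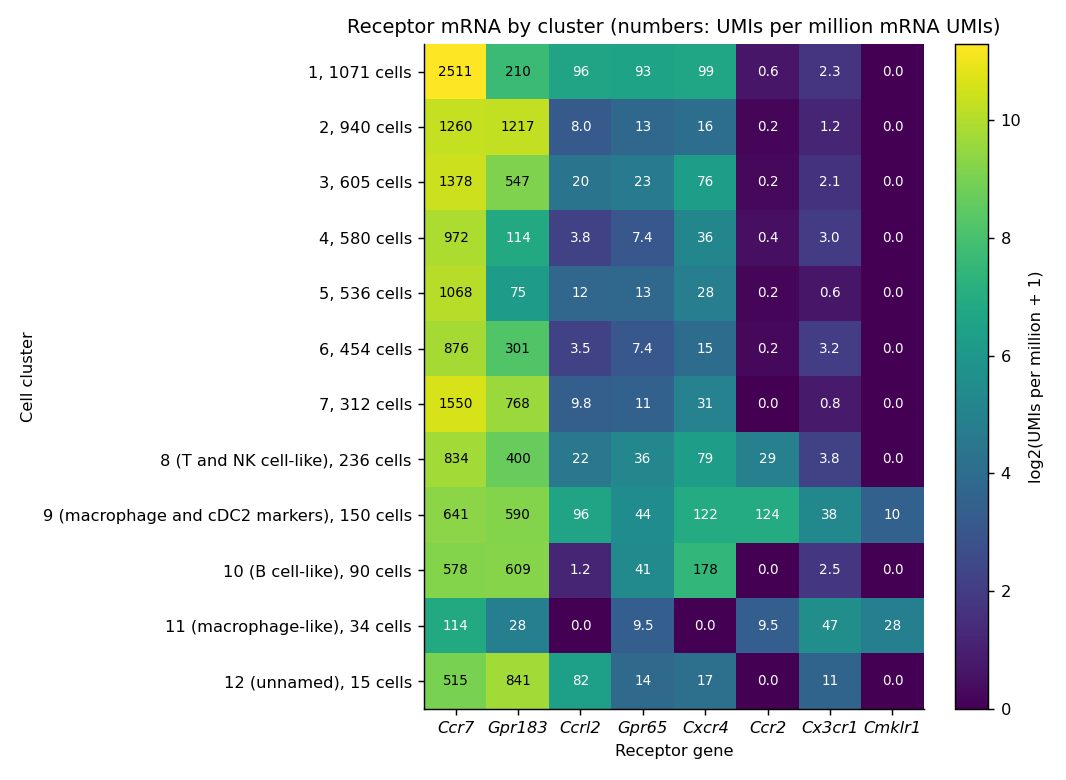
Level of each receptor in the 12 clusters, coloured by log2(CPM + 1) with the CPM printed in each cell. Ccr7 and Gpr65 stand out in cluster 1 (2511 and 93.3 CPM) and Gpr183 in cluster 2 (1217 CPM). Ccrl2 is high in clusters 1, 9 and 12 (96.1, 96.4 and 82.1 CPM). Ccr2, Cx3cr1 and Cmklr1 stand out in cluster 9 (124, 38.1 and 10.3 CPM). The cluster 11 values of Cx3cr1 and Cmklr1 rest on 5 and 3 UMIs.

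Detection of pairs in the same thinned cells followed this division. Ccrl2 and Gpr65 were found together in 141 of 4646 cells, where the product of their shares gives 53.9, a ratio of 2.62. Gpr65 and Cxcr4 were found together in 198 cells against 112, and Ccrl2 and Cxcr4 in 152 against 77.2. Gpr183 and Ccrl2 met in 144 cells against 221, and Gpr183 and Gpr65 in 230 against 322. Of the rare receptors, Ccr2 and Cx3cr1 met in 14 cells against 0.932, whereas Ccr7 and Ccr2 met in 29 against 56.9. In clusters 1 to 7 alone neither was seen: the first pair met in 0 cells against 0.0737 and the second in 8 against 7.70, on 8 cells with Ccr2. Ccr7 and Gpr183 were found together in 2279 cells against 2309. The 2 receptors of chemerin, Ccrl2 and Cmklr1, met in 5 cells against 0.715, on 8 cells with Cmklr1. All 5 were double-negative cells, and clusters 1 to 7 held 0 cells with Cmklr1. Cells share depth and capture, so these counts only describe the pool.

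Over the 10 clusters of at least 50 cells, which share 1 capture and differ in depth, the genes most like each receptor were named by Pearson correlation of log2(CPM + 1), as a description. Gpr183 was most like Nrp1, which encodes the semaphorin coreceptor neuropilin 1 (r 0.99), Cacna1d, a calcium channel gene, and Nfkb1, a subunit of NF-kB. Ccrl2 was most like Atf3 (r 0.96), a stress-induced transcription factor, then Osm, a cytokine, and Nfil3, a transcription factor. Gpr65 was most like Bpnt1 (r 0.96), Crem, a regulator of cAMP-responsive genes, and H3f3b, and Cxcr4 like Trim25 (r 0.91), Bpnt1 and Ppp1r15b. Ccr7 was most like Ier5 (r 0.94), Hsd17b7 and Id2. Over clusters 1 to 7 alone the leading genes of Gpr183, Ccrl2, Gpr65, Cxcr4 and Ccr7 had r of 0.99, 0.93, 0.98, 0.83 and 0.96. Ccr2 was most like Cdk2ap2 (r 0.97), but over clusters 1 to 7 at 0.13, and Cx3cr1 like Ap2a2 (r 0.94).

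Promoters of the pair that was high in cluster 1, and of Gpr183, are printed to show what lies at the starts of genes that varied together or apart. They run from 250 bases before to 50 after the start in RefSeq GRCm38.p6, an older build than that of the counts, and 7 of the 8 receptors matched. Capitals mark letters of an NF-kB motif, GGGA and CC with any 4 bases between, on either strand.
Ccrl2 promoter, chr9:111057469-111057768, minus strand: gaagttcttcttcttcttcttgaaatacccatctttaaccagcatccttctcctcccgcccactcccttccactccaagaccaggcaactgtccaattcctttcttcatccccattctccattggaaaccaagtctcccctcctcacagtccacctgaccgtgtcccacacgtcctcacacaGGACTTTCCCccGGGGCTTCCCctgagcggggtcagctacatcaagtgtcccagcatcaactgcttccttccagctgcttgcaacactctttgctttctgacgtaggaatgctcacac
Gpr65 promoter, chr12:98268385-98268684, plus strand: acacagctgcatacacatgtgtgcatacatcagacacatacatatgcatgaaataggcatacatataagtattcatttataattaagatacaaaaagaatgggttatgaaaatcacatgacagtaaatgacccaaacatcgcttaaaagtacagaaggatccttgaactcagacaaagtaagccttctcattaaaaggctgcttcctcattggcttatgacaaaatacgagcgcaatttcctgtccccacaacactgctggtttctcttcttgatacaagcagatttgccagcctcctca
Gpr183 promoter, chr14:121965144-121965443, minus strand: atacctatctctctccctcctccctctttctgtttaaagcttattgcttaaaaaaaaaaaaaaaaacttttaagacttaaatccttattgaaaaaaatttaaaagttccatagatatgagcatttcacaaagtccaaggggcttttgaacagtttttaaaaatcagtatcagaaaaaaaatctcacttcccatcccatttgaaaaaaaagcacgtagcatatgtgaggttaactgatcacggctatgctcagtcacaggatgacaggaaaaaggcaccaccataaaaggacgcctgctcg
Ccrl2 had 2 matches to the NF-kB letters, which do not overlap, at the first of its 3 starts and 0 at the other starts. The other 6 receptors with a promoter had 0 in this window. Of 32851 RefSeq promoters, 20.7% hold these letters. The AP-1 letters TGANTCA (7.81% of promoters), the cAMP response element TGACGTCA (1.79%) and the interferon response element, GAAA repeated after any 2 bases (3.44%), searched on both strands, had 0 matches in all 7. A match only describes letters.

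Antibody tags gave a second view of the same cells. Kept cells were divided into 3 equal groups by tag UMIs per cell, and the group with most tag was compared with the group with least. Deeper cells carry more tag: the group with most tag had a median of 16794, 17571, 17255 and 17207 mRNA UMIs for CD11b, CD8a, CD172a and CD301b, against 12186, 12406, 11926 and 12754 in the group with least. When cells were ranked instead on tag UMIs per 1000 mRNA UMIs, all 16 ratios past the fold stayed past it on the same side and 3 more passed it.

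With CD11b, an integrin of myeloid cells, 4 of 7 receptors were past the fold, all higher in cells with most tag, where 19.5% of all genes were past it, 8.02% higher and 11.5% lower. Ccr2 measured 18.7 CPM in cells with most CD11b and 0.652 CPM in cells with least, a log2 ratio of 4.79 (4.08 to 5.72). Cx3cr1 was higher by 1.58, Ccrl2 by 0.77 (0.62 to 0.91) and Cxcr4 by 0.69 (0.59 to 0.81). Within populations Ccrl2 stood at 1.08, 0.76, -0.09 and 1.70 in double-positive, RFP-only, BFP-only and double-negative cells, so it was not higher in BFP-only cells. Macrophage markers moved with this tag, at 796 CPM in cells with most CD11b and 95.5 CPM in cells with least. T and NK cell markers stood at 361 and 692 CPM (9 of 12 lower) and B cell markers at 60.8 and 323 CPM (9 of 9 lower). Their part was not tested. Gpr183 stood at 0.17 over all cells, but at 0.09, 0.38, 0.62 and 0.80 within double-positive, RFP-only, BFP-only and double-negative cells. In clusters 1 to 7 Cx3cr1 stood at 0.03, Ccrl2 at 0.29 and Cxcr4 at 0.63, and Ccr2 at 0.91 on few UMIs.

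With CD8a, Gpr183 was higher and 4 receptors were lower in cells with most tag, where 17.2% of all genes were past the fold, 5.18% higher and 12.0% lower. Gpr183 measured 769 CPM in cells with most CD8a and 359 CPM in cells with least, a ratio of 1.10 (1.06 to 1.14). The direction held within each population, at 0.96, 0.98, 0.64 and 0.69 for double-positive, RFP-only, BFP-only and double-negative cells. Ccrl2 stood at -0.98 (-1.13 to -0.84), Cxcr4 at -0.88 (-0.98 to -0.77), Ccr2 at -1.27 and Cx3cr1 at -1.33. Ccrl2 and Cxcr4 were also on the lower side in all 4 populations. With the same mix of clusters on both sides Gpr183 stood at 0.24 and Cxcr4 at -0.44, inside the fold, and Ccrl2 at -1.12. B cell markers stood at 68.1 CPM in cells with most CD8a and 333 CPM in cells with least (9 of 9 lower), and macrophage markers at 314 and 596 CPM (10 of 11 lower). Their part in these ratios was not tested beyond the setting with 1 cluster mix.

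With CD172a, an inhibitory receptor of type 2 dendritic cells and macrophages, 4 receptors were higher and 1 lower, where 20.8% of all genes were past the fold, 7.23% higher and 13.6% lower. Ccrl2 measured 47.3 CPM in cells with most CD172a and 17.6 CPM in cells with least, a ratio of 1.43 (1.26 to 1.60), and was higher in all 4 populations by 0.995 to 2.28. Cxcr4 was higher by 1.02 (0.91 to 1.14), and by 0.48 to 1.33 within populations. Ccr2 was higher by 1.95 and Cx3cr1 by 1.29, but in clusters 1 to 7 they stood at -0.25 and -0.40. Gpr183 stood at -0.50 (-0.54 to -0.47), just past the fold, with 2 populations on each side of 0. TMM scaling, which raised every ratio by 0.12 here, put it at -0.38. Ccr7 stood at 0.41, within the fold, and was on the higher side in all 4 populations. Macrophage markers stood at 699 CPM in cells with most CD172a and 171 CPM in cells with least (11 of 12 higher), and stress markers at 1681 and 1278 CPM (5 of 9 higher). T and NK cell markers stood at 315 and 818 CPM (12 of 12 lower) and B cell markers at 64.2 and 361 CPM (9 of 9 lower), and the part of these lists was not tested.

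With CD301b, a lectin of type 2 dendritic cells, 2 of 7 receptors were past the fold, both higher, where 13.5% of all genes were past it, 4.17% higher and 9.30% lower. Cxcr4 measured 71.8 CPM in cells with most CD301b and 42.5 CPM in cells with least, a ratio of 0.75 (0.65 to 0.87), with 4 of 4 populations on the higher side. Ccrl2 stood at 0.51 (0.36 to 0.65), at the edge of the fold, and at -0.17 with the same mix of clusters. Cxcr4 in that setting stood at 0.37. Stress markers stood at 1640 CPM in cells with most CD301b and 1265 CPM in cells with least (5 of 9 higher), T and NK cell markers at 331 and 616 CPM (11 of 12 lower) and B cell markers at 71.2 and 265 CPM (9 of 9 lower). The part of these markers was not tested. Cxcr4 went with CD11b, CD172a and CD301b and against CD8a in each of the 4 populations, with values on those sides in 16 of 16 cases. The 4 tags divide the same cells, so these cases are not separate evidence. The share of all genes that keep their sides in this way is not given.

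**Figure D5:**
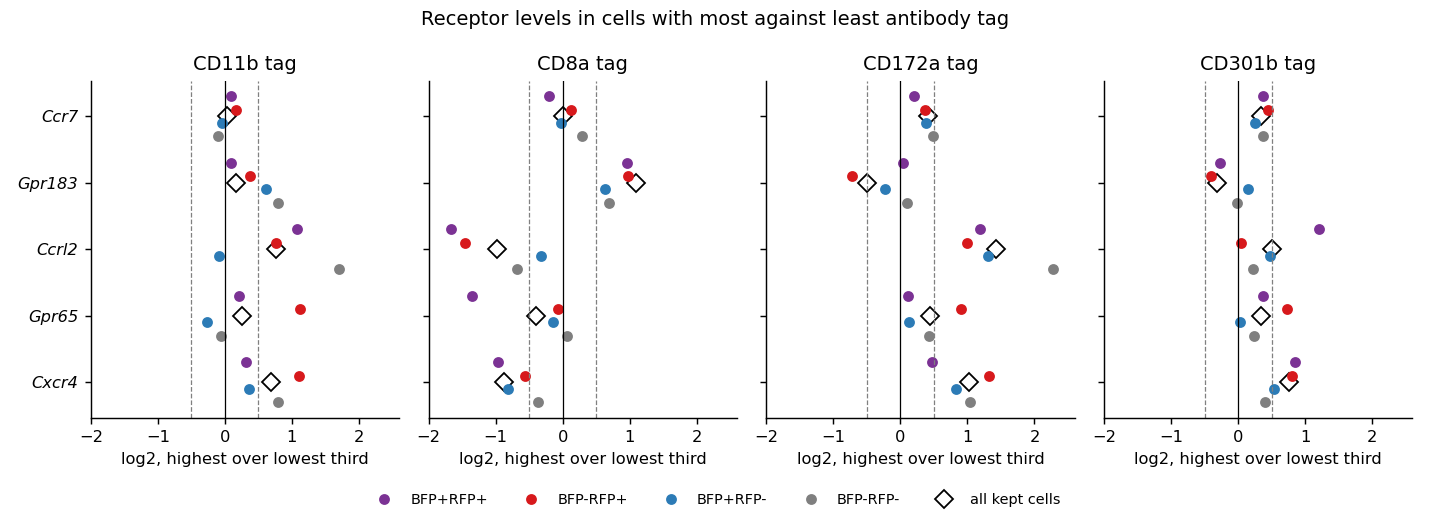
Log2 ratio of cells with most over cells with least of each antibody tag for 5 receptors, over all kept cells (diamonds) and within each population (points). Dashed lines mark the fold of 0.5. Gpr183 lies at 1.10 for CD8a with all 4 populations at 0.64 or more, and Ccrl2 at 1.43 for CD172a.

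Other genes of the pathway were read from 4 lists. Among ligands of these receptors and the enzymes that make or remove them, 12 genes, the enzyme gene Cyp7b1 stood out. CYP7B1 adds the 7-alpha hydroxyl group of the GPR183 ligand. Cyp7b1 measured 17.4, 49.1, 10.7 and 24.8 CPM in double-positive, RFP-only, BFP-only and double-negative cells, higher in RFP+ cells by 0.70 within BFP+ and 0.98 within BFP-, and lower in BFP+ cells at -1.50 and -1.21. It was also higher in cells with most CD8a tag, by 1.65. Inside clusters the sides were mixed. Within RFP-, Cyp7b1 was higher in BFP+ cells in clusters 1 and 2, at 1.01 (0.10 to 2.15) and 1.81 (0.67 to 3.60), and within BFP+ it was lower in RFP+ cells in cluster 9, at -1.94 (-2.85 to -1.20). Cluster 9 held 859 of its 1769 UMIs, and 519 of 773 in RFP-only cells. Its highest level was in cluster 9, at 206 CPM, with 22.3 and 21.0 CPM in clusters 6 and 2. Ch25h and Hsd3b7, the enzymes before and after it, were near 0, with 1, 0, 2 and 5 UMIs of Ch25h and 3, 2, 9 and 3 of Hsd3b7 in the same order of populations.

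The CCR7 ligand gene Ccl19 measured 19.3, 17.6, 21.0 and 21.4 CPM in double-positive, RFP-only, BFP-only and double-negative cells, and Ccl21a 3.32, 2.16, 2.84 and 2.29 CPM. Cxcl12 and the chemerin gene Rarres2 stayed under 1 CPM in each. Ccl2, a CCR2 ligand gene, was higher in cells with most CD11b tag by 3.42 and with most CD172a by 3.58, with 27.5 CPM in cluster 9. The medians of the tested genes of this list were -0.19 and -0.03 for BFP+ over BFP- cells within RFP+ and RFP-, and 0.24 and 0.06 for RFP+ over RFP- cells within BFP+ and BFP-. Of 5 ligand and enzyme genes tested, 0 were past the fold and higher and 2 lower in BFP+ cells in each RFP state. In RFP+ cells 2 were higher and 0 lower, of 5 tested within BFP+ and 6 within BFP-. Of all genes, 2.53%, 2.58%, 4.34% and 5.21% were past the fold and higher in these 4 comparisons, and 9.31%, 5.39%, 6.79% and 3.91% lower. With so few genes tested, the list cannot be set apart from all genes.

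Of 42 other chemoattractant receptors, 11 to 15 had enough UMIs for each reporter comparison. Their medians in the same 4 comparisons were -0.05, -0.17, -0.06 and -0.05. In BFP+ cells 0 were higher and 2 lower within RFP+, and 0 higher and 3 lower within RFP-. In RFP+ cells 1 was higher and 2 lower within BFP+, and 1 higher and 1 lower within BFP-. Beside these stood 2.53%, 2.58%, 4.34% and 5.21% of all genes higher and 9.31%, 5.39%, 6.79% and 3.91% lower. The counts are too small to set this list apart from all genes. Cxcr6, which binds CXCL16, was higher in RFP+ cells by 0.86 and 1.72, and T and NK cell-like cells held its highest level (61.5 CPM, against 0.558 CPM or less in clusters 1 to 7). P2ry14, a receptor for UDP-sugars, was lower at -1.32 and -0.84. By tag, P2ry12 and P2ry14 were higher in cells with most CD172a (1.64 and 1.30). S1pr4 and S1pr1, sphingosine phosphate receptors used by lymphocytes, were lower there (-2.27 and -1.07). T and NK cell and B cell markers were also lower there, as given above.

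Of 18 signalling and shut-off genes tested, 0 were higher and 1, 0, 2 and 1 lower in the comparisons of BFP+ within RFP+, BFP+ within RFP-, RFP+ within BFP+ and RFP+ within BFP-, where 11.8%, 7.97%, 11.1% and 9.12% of all genes were past the fold in either direction. These counts are too small to set the list apart from all genes. Their medians were -0.07, -0.05, -0.07 and -0.02. By tag, Rgs2, which speeds the end of G protein signals, was higher in cells with most CD11b by 1.57, and Grk5, a receptor kinase, in cells with most CD172a by 0.82. Of 24 genes of cell movement, 0 were higher in BFP+ cells, and 4 within RFP+ and 1 within RFP- were lower. In the other comparisons 1 was higher and 3 were lower in RFP+ cells within BFP+, and 1 higher and 2 lower within BFP-. In the same 4 comparisons 2.53%, 2.58%, 4.34% and 5.21% of all genes were higher and 9.31%, 5.39%, 6.79% and 3.91% lower. The movement counts are also too small to set that list apart. The medians of these genes were -0.11, -0.05, -0.09 and -0.02. Rac2, a small GTPase of moving leukocytes, was higher at 0.89 and 0.67, and Adam8, a surface protease, was lower at -0.93 and -0.64. Itgax, the CD11c gene, was lower in BFP+ cells at -1.19 and -0.99 and in RFP+ cells at -0.78 and -0.58, and its highest level was in cluster 9 (63.4 CPM).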

How the data were processed

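The deposited matrix holds raw UMI counts made with Cell Ranger 7.0.0, per the file headers, on GRCm39 (mm39), per the submitters' processing notes. Genes, antibody tags and hashtags were counted on the same 6079 barcodes of 1 capture. The labels name 3 libraries and give no number of mice, so each sorted population is 1 sample and no test was made. Cells were kept as the report states; 699 barcodes fell under the hashtag share. HTODemux, another way to call hashtags, called 897 doublets between populations, more than the 699 barcodes that the hashtag share removed. Some doublets between populations can therefore remain among kept cells. From the 897, 378 doublets within populations were expected (7.53% of HTODemux singlets), and these were not removed. Counts were summed per group, with exact Poisson intervals for levels and exact binomial intervals for ratios (0.5 UMIs added to each sum) and shares. Ratios used genes with at least 100 UMIs over both sides.

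For shares, cells were thinned to 5000 UMIs. Clustering (scanpy 1.11.5, Leiden, 2000 variable genes, 30 components, 15 neighbours) left out 111 genes: those of the pathway lists, the reporters, Tnfsf4 and Siglech. A cluster marker was raised at a log2 ratio of 1 over the other cells and a UMI in 20% of the cluster. TMM came from edgeR 4.0.16, used for scaling alone, and HTODemux from Seurat 5.3.0. The ratio code was tested on simulated counts. Alternatives changed the hashtag and quality filters, the clusters used, the tag ranking, the scaling, the pseudocount and the fold; restriction to clusters 1 to 7 was chosen after seeing the data.

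The receptors and lists were chosen with earlier results of these data known. Other genes were named by rule: list genes past the fold on the same side in both states of the other reporter (at most 4 a list and side), at most 3 a list and side for each tag, and the 3 genes most like each receptor. Not all of these are printed. Ligand genes with no call, Fscn1, Xcr1, Epcam and cluster leaders were named outside this rule.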

Additional observations from a re-analysis of the deposited data

Results flagged for a closer look

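Ccr7 lay on opposite sides of 0 in the comparisons by BFP, at 0.10 for double-positive over RFP-only cells and at -0.07 for BFP-only over double-negative cells. The difference between these ratios was not tested, and TMM scaling moved them to 0.20 and 0.01.

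Barcodes under the hashtag share that passed the other filters, 679 of them, belong to no population and were used in no comparison. They held Ccr7 at 1417 CPM, Gpr183 at 592 CPM, Ccrl2 at 33.2 CPM, Gpr65 at 31.0 CPM and Cxcr4 at 54.8 CPM, within the range of the sorted populations. Ccr2 stood at 8.99 CPM, Cx3cr1 at 5 CPM and Cmklr1 at 1.07 CPM, all above 0.153 CPM, the level of 3 UMIs in these barcodes.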

How the results depend on the processing

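The 28 ratios past the fold kept their side under every planned filter, scaling and pseudocount, and most stayed past it. The mix of clusters mattered most. With the same mix on both sides 17 of 28 moved inside the fold, and in clusters 1 to 7 alone 10 did. With the same mix, 4 other ratios newly passed it, so 1 of 7 receptors was past the fold for BFP within RFP+ (Ccr2, newly, at 1.13), 0 for BFP within RFP-, 1 for RFP within BFP+ (Ccr2, newly, at -0.62), 2 for RFP within BFP- (Ccr2 and, newly, Cx3cr1), 3 for CD8a and 1 for CD301b (Cx3cr1, newly, at -0.70); Ccr2 for BFP within RFP- turned to 0.30 and Ccrl2 for CD301b to -0.17. In clusters 1 to 7 the counts were 1 for BFP within RFP+, 0 for BFP within RFP-, 2 for RFP within BFP-, 1 for CD11b, 3 for CD8a and 3 for CD172a, where Ccr2 turned to -0.25 and Cx3cr1 to -0.40. Ccr2 had 20 UMIs in all of these clusters, so its ratios there rest on few counts. A fold of log2 1 left 1 for BFP within RFP+, 0 for RFP within BFP+, 2 for RFP within BFP-, 2 for CD11b, 3 for CD8a and 0 for CD301b. Without the 5 cells richest in each gene, RFP within BFP- gave 2 and Ccr2 there turned to 0.059. For CD301b the count was 1 with HTODemux singlets, a 5% mitochondrial limit, tag groups made within populations or a pseudocount of 5, and 4 without the deepest 5% of cells, where BFP within RFP+ gave 1. As a mean of per-cell levels, Cxcr4 for BFP within RFP+ stood at -0.38 and Ccrl2 for RFP within BFP- at -0.47. The cause of these changes was not tested. The share of all genes past the fold in each of these settings is not given, so the counts are not set against all genes. No paired analysis was possible because there is 1 sample a population. Depth limits Cmklr1, with 46 UMIs, and Ccr2, whose UMIs lie in few cells.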
